A study of Mus musculus with 2 samples.

Results

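Small nucleolar RNAs (snoRNAs) and small Cajal body RNAs (scaRNAs) were examined as 150 named mouse genes among the 55536 gene entries of the deposited gene tables. The members were every entry whose symbol begins with Snord, Snora or Scarna followed by a digit. By symbol they fell into 99 C/D box, 42 H/ACA box and 9 Cajal body entries. They carried 147 different symbols, since Snord80, Snora43 and Snora16a each stood for a pair of entries. The annotation typed 142 of them as snoRNA and 7 as scaRNA, and typed Snord43 as a microRNA. A further 1409 genes of the snoRNA and scaRNA types have other names, mostly provisional ones, and served as a comparison.

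C/D box snoRNAs carry the fibrillarin complex to ribosomal RNA, where base pairing of the guide places a methyl group on a ribose. H/ACA box snoRNAs do the same for the dyskerin complex, which turns uridine into pseudouridine. Cajal body RNAs hold the same boxes but stay in Cajal bodies, where they guide modification of the spliceosomal small nuclear RNAs. A few members, such as Snord22, Snord118 and the Snora73 pair, are known for their part in cutting or folding the ribosomal precursor instead. Most vertebrate snoRNAs are cut out of the introns of a host gene after splicing, so the nucleoplasm holds both the host precursor and the RNA that is being assembled into its particle. Finished C/D and H/ACA particles collect in the nucleolus.

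The material was the nucleoplasmic fraction of C57BL/6J bone-marrow-derived macrophages, exposed to Lipid A, the membrane anchor of bacterial lipopolysaccharide, at 100 ng/ml for 60 min. RNA depleted of ribosomal RNA was sequenced as total RNA, with a labelled size range of 250 to 400. There was 1 group with 2 biological replicates, replicate 1 from 1 µg and replicate 2 from 500 ng of starting RNA. Both replicates carry the same donor label, which may make their spread smaller than the spread among animals, and without an unstimulated group the data hold no effect of Lipid A.

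Most members carried the box letters of their class. TGATGA, the core of the C box, stood within the first 20 bases of 70 of 99 C/D members (70.7%), 4 of 9 Cajal body members and 0 of 42 H/ACA members. The same letters were there in 18.3% of the 1409 other snoRNA and scaRNA genes, 0.0723% of snRNA genes and 0.182% of microRNA genes. CTGA, the D box, lay within the last 20 bases of 97 C/D members (98.0%), 5 Cajal body members and 5 H/ACA members (11.9%), against 30.9% of the other snoRNA and scaRNA genes. ACA followed by exactly 3 bases at the 3′ end marked 35 of 42 H/ACA members (83.3%), 2 Cajal body members and 0 C/D members, against 18.7% of the other genes. The search used the RNA strand alone, and a match describes letters, not a working box.

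The sequences below are those of the members on which the results turn, taken from the GENCODE M21 transcripts on mm10 and written 5′ to 3′ with T for U. Capitals mark TGATGA where it was found and the last CTGA in the C/D and composite RNAs, and in the H/ACA RNAs and Scarna13 the ACA before the last 3 bases. The 4 Cajal body RNAs come first, because they held most of the counts.

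Scarna10 (chr6:125186359-125186683, minus strand, within Ncapd2), a composite guide with both kinds of box in its human counterpart:
Scarna10, first 60 bases: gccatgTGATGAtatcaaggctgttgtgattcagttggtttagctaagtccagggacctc
Scarna10, last 60 bases: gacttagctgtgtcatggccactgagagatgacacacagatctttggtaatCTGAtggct
Scarna2 (chr3:108554338-108554751, minus strand, in no host gene), of C/D type in human:
Scarna2, last 100 bases: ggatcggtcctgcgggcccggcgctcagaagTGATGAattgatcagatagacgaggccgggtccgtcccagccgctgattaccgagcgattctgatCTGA
Scarna13 (chr12:105031075-105031349, minus strand, intron of Snhg10), a tandem H/ACA RNA in human:
Scarna13: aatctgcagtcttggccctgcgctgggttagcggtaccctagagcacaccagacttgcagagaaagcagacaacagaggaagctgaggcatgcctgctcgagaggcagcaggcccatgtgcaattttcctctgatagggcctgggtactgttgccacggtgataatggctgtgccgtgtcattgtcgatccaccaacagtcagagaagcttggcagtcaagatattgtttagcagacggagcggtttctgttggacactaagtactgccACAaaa
Scarna6 (chr1:87784556-87784820, plus strand, intron of Atg16l1), a composite guide in human:
Scarna6: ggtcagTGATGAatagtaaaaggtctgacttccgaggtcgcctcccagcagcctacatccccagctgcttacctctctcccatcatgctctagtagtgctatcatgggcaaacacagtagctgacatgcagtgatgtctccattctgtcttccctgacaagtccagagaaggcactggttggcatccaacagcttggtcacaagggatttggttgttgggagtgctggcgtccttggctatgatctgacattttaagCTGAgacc

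The 4 detected C/D members follow. Snord22 (chr19:8725866-8725991, plus strand, in Snhg1) is the shortest of them, Snord15a (chr7:99482785-99482932, minus strand) and Snord15b (chr7:99479563-99479707, minus strand) lie in Rps3, and Snord17 (chr2:144265979-144266216, minus strand, intron of Snx5) is the longest C/D member.
Snord22: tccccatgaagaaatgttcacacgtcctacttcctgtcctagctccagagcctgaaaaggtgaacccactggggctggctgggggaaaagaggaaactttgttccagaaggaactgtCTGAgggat
Snord15a: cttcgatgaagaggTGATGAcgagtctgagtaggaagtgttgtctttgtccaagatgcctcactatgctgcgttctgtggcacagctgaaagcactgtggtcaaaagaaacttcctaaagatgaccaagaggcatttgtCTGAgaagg
Snord15b: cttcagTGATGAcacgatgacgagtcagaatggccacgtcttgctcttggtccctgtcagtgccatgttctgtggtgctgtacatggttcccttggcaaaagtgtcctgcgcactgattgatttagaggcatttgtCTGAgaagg
Snord17: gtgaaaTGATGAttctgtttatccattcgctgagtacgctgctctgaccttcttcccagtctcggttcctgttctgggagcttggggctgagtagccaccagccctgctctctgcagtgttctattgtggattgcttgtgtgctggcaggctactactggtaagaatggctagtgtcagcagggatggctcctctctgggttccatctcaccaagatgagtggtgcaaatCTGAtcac

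Snora73a (chr4:132352775-132352979, minus strand) and Snora73b (chr4:132352322-132352526, minus strand), both in Snhg3, are shown because their letters match in 198 of 205 aligned columns, an identity of 96.6%. Reads that fit either copy cannot be assigned with certainty, so their counts are best read as a pair.
Snora73a: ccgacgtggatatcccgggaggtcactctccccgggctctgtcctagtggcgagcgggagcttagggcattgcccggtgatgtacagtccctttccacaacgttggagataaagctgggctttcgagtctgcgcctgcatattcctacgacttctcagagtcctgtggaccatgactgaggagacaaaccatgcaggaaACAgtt
Snora73b: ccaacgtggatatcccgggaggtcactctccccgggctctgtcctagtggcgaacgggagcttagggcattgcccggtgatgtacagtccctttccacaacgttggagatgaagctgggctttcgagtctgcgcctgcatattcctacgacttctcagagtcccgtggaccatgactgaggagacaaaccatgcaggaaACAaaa

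The last 4 had no count in the gene tables but did in the second quantification. They are Snord89 (chr1:39548745-39548854, minus strand), Snora31 (chr14:75847905-75848034, plus strand), Snord118 (chr11:69073427-69073561, plus strand) and Snord37 (chr10:81178950-81179013, plus strand), the shortest of all detected there.
Snord89: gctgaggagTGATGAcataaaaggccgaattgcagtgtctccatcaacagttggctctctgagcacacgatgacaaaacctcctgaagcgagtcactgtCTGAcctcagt
Snora31: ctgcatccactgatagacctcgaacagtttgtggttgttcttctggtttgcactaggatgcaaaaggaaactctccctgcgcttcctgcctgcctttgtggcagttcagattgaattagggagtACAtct
Snord118: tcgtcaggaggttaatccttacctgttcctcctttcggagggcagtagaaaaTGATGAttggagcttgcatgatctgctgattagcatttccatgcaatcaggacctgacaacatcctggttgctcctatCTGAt
Snord37: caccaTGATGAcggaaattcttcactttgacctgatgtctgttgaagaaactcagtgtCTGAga

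Replicate 1 held 21256531 expected counts in all and replicate 2 held 15643649. The members held 13152 and 7259 of these counts, which is 0.0544% ± 0.0112 of the counts on genes (SD, n = 2). All 6 macrophage markers stood at 20.2 TPM or more in both libraries, all 3 T cell markers were at 0, and no marker of B cells, neutrophils or erythroid cells passed 0.31 TPM. In such bulk samples, fewer cells of a type and less RNA per cell cannot be told apart. For members inside a host gene, counts on the member itself and on unspliced host RNA cannot be told apart, and those of members that overlap a host exon or have a near copy are uncertain.

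Few of the named RNAs were detected, and they were mostly the long ones. With at least 3 expected counts in both libraries as the limit, 14 of 150 members (9.33%) were detected, against 28.6% of all 55536 genes and 2.20% of the 1409 other snoRNA and scaRNA genes. All 14 are among the 53 members of at least 126 bases, a share of 26.4%. The 14 were 4 of 9 Cajal body, 4 of 99 C/D and 6 of 42 H/ACA members. At this depth 3 counts correspond to 0.142 CPM (counts scaled to a common library size) in replicate 1 and 0.192 CPM in replicate 2, a limit that covers counting error only. Replicate 1 alone had 23 members at or above the limit and replicate 2 alone had 14. The 9 extra members in replicate 1 were 8 H/ACA RNAs and Scarna3a, while no member passed in replicate 2 only. A total of 119 members were at 0 in both libraries.

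Detection went with length. Of 89 members under 100 bases, 0 were detected, as were 4 of 51 members of 100 up to 150 bases, 3 of 3 of 150 up to 200 bases and 7 of 7 of at least 200 bases. The classes differ in length: the median was 84 bases in C/D members (64 to 238), 132.5 bases in H/ACA members (121 to 205) and 140 bases in Cajal body members (70 to 414). Between 100 and 150 bases, where the classes overlap, 3 of 11 C/D, 1 of 37 H/ACA and 0 of 3 Cajal body members were detected. The other snoRNA and scaRNA genes followed length as well, with 0 of 373 under 100 bases and 14 of 32 of at least 200 bases. Across the 150 members the rank correlation of length with expected count was 0.602 in replicate 1 and 0.536 in replicate 2, a description over genes that share the same libraries.

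**Figure D1:**
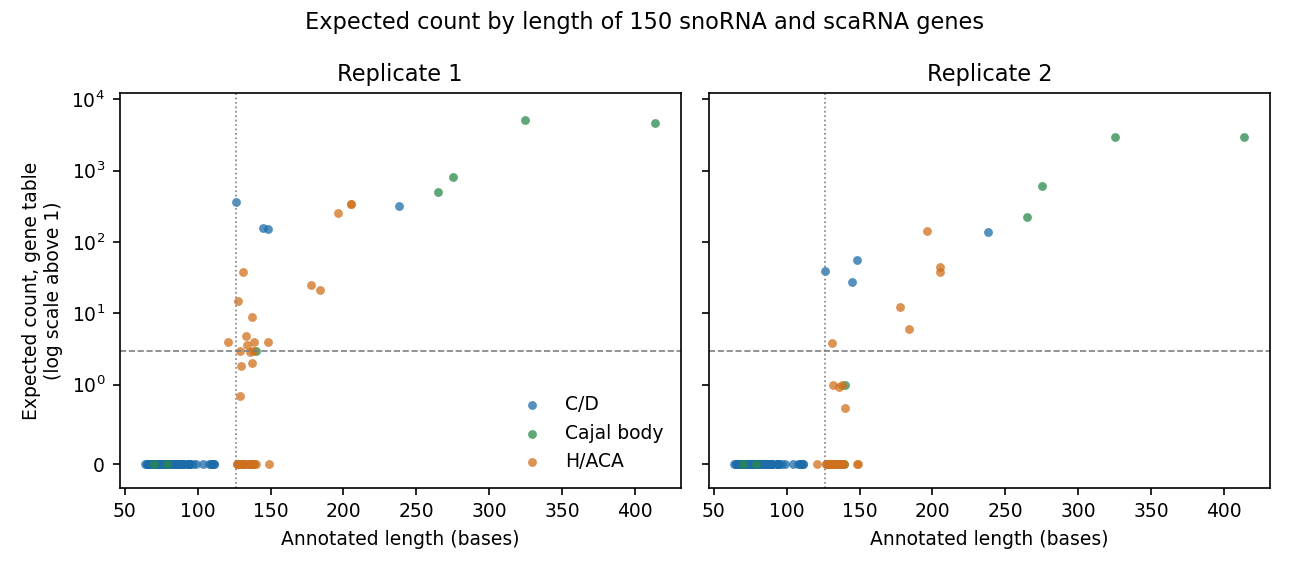
Expected count of each of the 150 members (log scale above 1) against annotated length in bases, 1 panel per replicate and 1 colour per class. The dashed line marks 3 expected counts and the dotted line 126 bases, the shortest length with an effective length above 0 in replicate 1. Members under 100 bases all lie at 0, and all 10 members of at least 150 bases lie above the dashed line in both replicates.

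The deposited effective length stands for the number of places at which the library's fragments can start on an RNA. It reached 0 within the range of the members' lengths. It was 0 for 97 members in replicate 1, the longest of 121 bases, and for 98 members in replicate 2, the longest of 126 bases. It was under 5 bases, but above 0, for a further 40 members in replicate 1 and 42 in replicate 2. Only Snora26 in replicate 1 (3.98 counts) and Snord22 in replicate 2 (38.9 counts) held counts at an effective length of 0. A TPM value divides by this length, so the same count weighs differently along the members. For Scarna2, the longest, 1 count was worth 0.196 TPM in replicate 1 and 0.216 TPM in replicate 2. For Snord22, 1 count was worth 29.5 TPM in replicate 1 and nothing in replicate 2.

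**Figure D2:**
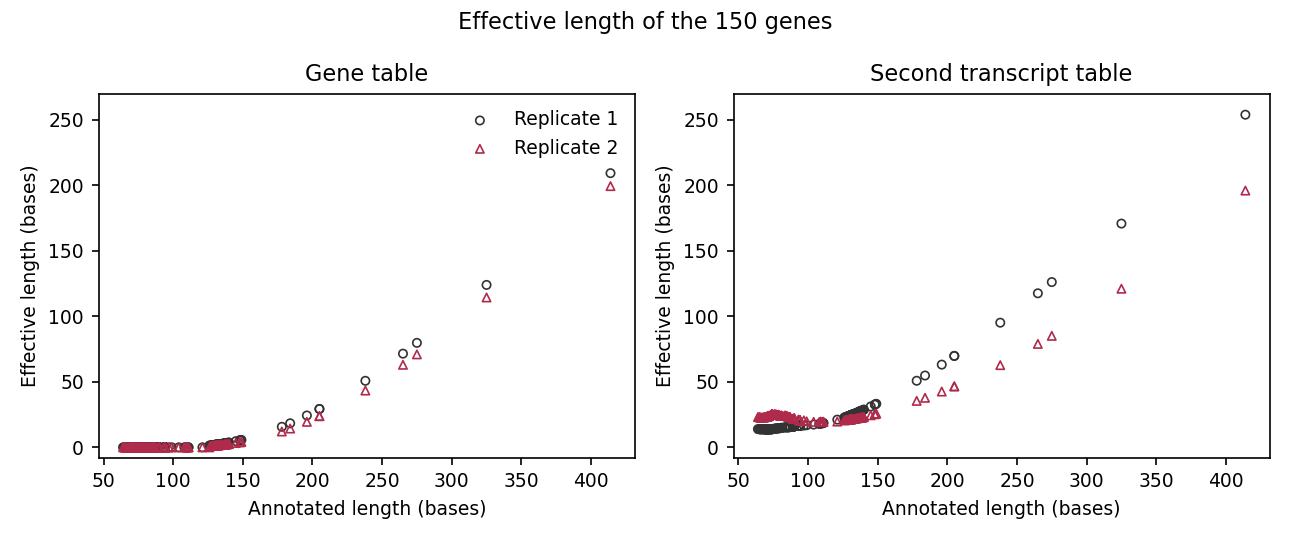
Effective length in bases against annotated length for the 150 members, in the gene table (left) and in the second transcript table (right), with circles for replicate 1 and triangles for replicate 2. In the gene table the values reach 0 at 121 bases in replicate 1 and at 126 bases in replicate 2, while in the second table no member is at 0.

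The Cajal body RNAs held most of the counts. Scarna10, which in human guides modification of a spliceosomal RNA with both kinds of box, had 5065 counts in replicate 1 and 2930 in replicate 2. Scarna2 had 4703 and 2987 counts in the same order of replicates. Scarna13 had 819 and 608 counts, and Scarna6 had 495 and 222. Each of the 4 was higher in raw count in replicate 1, the deeper library, and their order by CPM per kilobase was Scarna10, Scarna2, Scarna13 and Scarna6 in both. Scarna10 stood at 738 CPM per kilobase of annotated length in replicate 1 and 578 in replicate 2, and Scarna2 at 538 and 462, so the values of those neighbours did not overlap on this scale. The scale was chosen after seeing the data. In CPM without division by length, Scarna10 stood at 240 and 188 and Scarna2 at 223 and 191. There the values overlapped and Scarna2 was the higher in replicate 2. Together the 4 held 88.6% ± 6.14 of the members' counts (SD, n = 2), and Scarna10 with Scarna2 held 77.9% ± 5.12.

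The other 5 Cajal body members are all 140 bases or shorter. Scarna3a, of 140 bases, had 3 counts in replicate 1 and 1 count in replicate 2. Scarna3b, Scarna8, Scarna9 and Scarna17 were at 0 in the gene tables of both libraries. Scarna10 shares 85.8% of its 31-base words with annotated transcripts of other genes, so its count is uncertain.

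**Figure D3:**
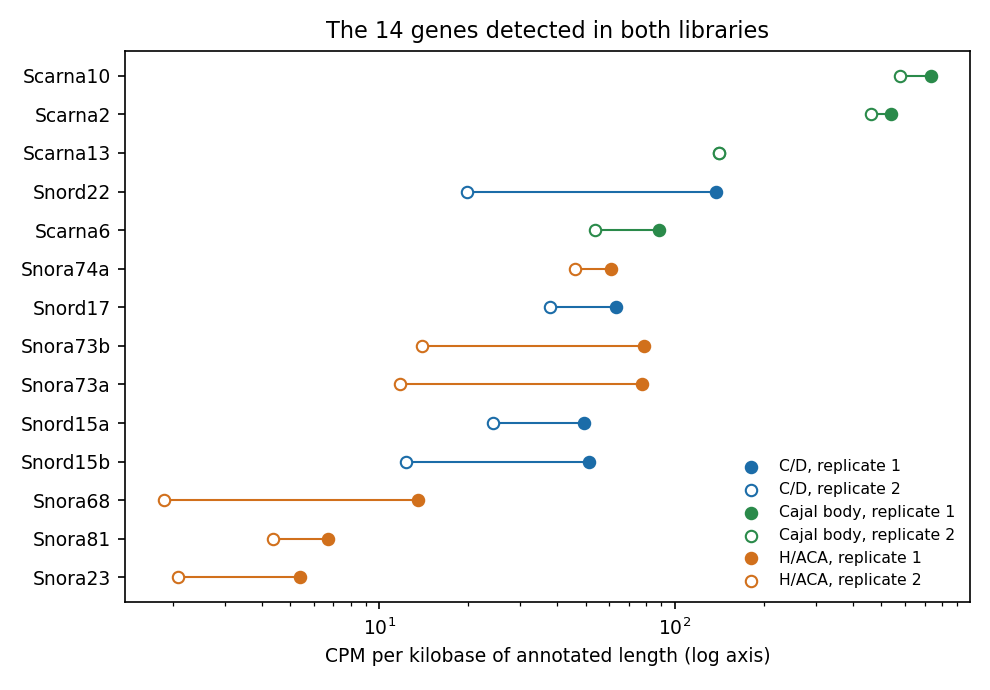
The 14 members detected in both libraries by CPM per kilobase of annotated length (log axis), with filled points for replicate 1, open points for replicate 2 and a line joining them, coloured by class. Scarna10 and Scarna2 lie above all others, and Snora68, Snora81 and Snora23 lie lowest.

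Among the C/D members, 4 of 99 were detected, and all 4 had lower counts in replicate 2. Snord17, a guide for ribosomal RNA methylation, had 318 counts in replicate 1 and 140 in replicate 2. Snord15a and Snord15b are guides for methylation of large-subunit ribosomal RNA. Snord15a had 154 and 56 counts, and Snord15b, its neighbour in Rps3, had 156 and 27.8 counts. Although they share a name and a host, Snord15a and Snord15b matched in 65.6% of 154 aligned columns. Snord22 had 368 counts in replicate 1 and 38.9 in replicate 2, and all of its 31-base words also occur in Snhg1 transcripts. The remaining 95 C/D members were at 0 in both libraries.

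Snord22 shows how far count and TPM part for an RNA near the length limit. Its TPM was 10856 in replicate 1, at an effective length of 1.39 bases, and 0 in replicate 2, at an effective length of 0. That made it 53.9% of the members' TPM in replicate 1, from 2.80% of their counts. The members as a whole held 2.02% of TPM in replicate 1 and 0.413% in replicate 2, while their share of counts was 0.0623% and 0.0465%. The share of the members' counts held by each class was 88.6% ± 6.13 for Cajal body, 5.60% ± 2.80 for C/D and 5.78% ± 3.33 for H/ACA RNAs (SD, n = 2 each). In TPM the same shares were 36.0% ± 27.5, 47.4% ± 28.7 and 16.6% ± 1.20, so the order of Cajal body and C/D RNAs was not set beyond the spread between replicates.

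Of the H/ACA members, 6 of 42 were detected, 5 of them of 178 bases or more. Snora73a had 336 counts in replicate 1 and 37.7 in replicate 2, and Snora73b had 341 and 44.6. Snora74a, which lies on chromosome 18 within a noncoding host transcript, had 252 and 141 counts. Snora81, in Eif4a2, had 25.2 and 12.2 counts, and Snora23, in Ipo7, had 21 and 6. Snora68, of 131 bases, was the only detected H/ACA member shorter than 178 bases and had 37.3 and 3.81 counts. Snora78 (15 and 0 counts) and Snora52 (8.81 and 0 counts) had gene-table counts in replicate 1 only.

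Class medians were at 0 for both snoRNA classes. On the log2(TPM + 1) scale the class median was 4.65 ± 0.68 for Cajal body members, 0 for C/D members and 0 for H/ACA members (n = 2 libraries). The Cajal body median is the value of Scarna3a, which was not detected in both libraries and for which 1 count was worth 11.3 TPM in replicate 1 and 17.0 TPM in replicate 2. In CPM the same class median was 0.14 ± 0.07 on the log2(CPM + 1) scale. Among detected members alone the median difference was 1.59 ± 1.57 for Cajal body minus H/ACA and 1.53 ± 0.06 for C/D minus H/ACA. The first of these differences is about as large as its spread. It was 0.48 in replicate 1 and 2.70 in replicate 2. Over all members in the second transcript table, C/D minus H/ACA was -1.42 ± 0.28. For the members detected in the gene tables, the second table kept C/D above H/ACA. Its median TPM was 75.1 for C/D and 41.7 for H/ACA members in replicate 1, and 52.9 and 21.3 in replicate 2. Within the second table the order of those classes thus turned with the members taken. In the gene tables the median of every class among members of 100 up to 150 bases was 0 in both libraries. These values describe the 2 libraries and carry no p-value, since the samples form 1 group.

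The second transcript table, another quantification of the same libraries, listed many more of the short RNAs. At least 3 estimated counts in both libraries were found for 56 members (37.3%), against 45.2% of all genes. They were 7 of 9 Cajal body, 29 of 99 C/D and 20 of 42 H/ACA members. By length they were 21 of 89 under 100 bases, 25 of 51 of 100 up to 150 bases, and all 10 longer ones. Of members of at least 126 bases, 30 of 53 (56.6%) passed. All 14 members detected in the gene tables were among the 56. Of the other 42, 35 were at 0 in both gene tables and 26 were shorter than 126 bases. There were 51 members at 0 in every table of both libraries.

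Among the RNAs listed at 0 in the gene tables, Snord89 was the highest in the second table, with 174 estimated counts in replicate 1 and 111 in replicate 2. Snora31, in the intron of Tpt1, had 93 and 100 counts. Scarna17 had 41 and 22 counts, and Scarna9 had 13 and 30. Snord37, of 64 bases in the intron of the elongation factor gene Eef2, had 16 and 10 counts. The replicates kept no common order here, since replicate 2 was higher in Snora31 and Scarna9 and lower in the other 3. Between 100 and 150 bases the second table listed 9 of 11 C/D and 15 of 37 H/ACA members. Its rank correlation of length with estimated count was 0.324 in replicate 1 and 0.351 in replicate 2 over all members, 0.0798 and 0.0934 over the C/D members, and 0.432 and 0.435 over the H/ACA members.

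For the well-counted members both tables gave like counts but unlike TPM. In TPM, 11 of 11 members with a mean count of at least 50 were more than 2-fold higher in the gene table than in the second table, where 32.7% of 10068 genes were, and 0 were lower, where 2.17% were. Their log2 ratio of gene table over second table ran between 1.40 and 5.11 with a median of 2.46, beside 0.82 over all genes. These ratios compare means over both libraries. The smallest ratio was that of Scarna2 and the largest that of Snord22, the longest and the shortest of the 11. The ratio of Snord22 rests on replicate 1. In replicate 2 Snord22 stood at 0 TPM in the gene table and at 45.0 TPM in the second table. With replicate 2 alone, 10 members were more than 2-fold higher in the gene table. In CPM, 0 of the 11 were more than 2-fold higher, beside 0.288% of all genes, 0 were lower, beside 5.63%, and their median log2 ratio was 0.27.

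Among members known for processing of the ribosomal precursor, Snord22 and the Snora73 pair alone held counts in the gene tables. The list held 10 members, of which 3 were detected in the gene tables (Snord22, Snora73a and Snora73b) and 6 in the second table. The summed gene-table count of the list was 1045 in replicate 1 and 121 in replicate 2, not corrected for depth. It rests on those 3 members, of which the Snora73 pair are near copies, and so describes no more than them. Snord118, a C/D RNA needed for the large subunit RNA, had 0 counts in the gene tables and 13 and 24 in the second table. Snord13 had 11 and 6 estimated counts in the second table, and Snora62 had 6 and 5. The Snord14 copies in the heat-shock gene Hspa8 differed between libraries, since Snord14c had 24.4 and 0 estimated counts and Snord14d had 33.7 and 0.63. Snord14a in Rps13 and Snord14e in Hspa8 were at 0 in both tables.

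No count fell on the named members of the imprinted clusters. These 19 members, Snord64, Snord107 and 17 copies named Snord116l, were at 0 in both tables of both libraries. Snhg14, the annotated host of 17 of them, stood at 0.50 TPM in each library. Copies under other names were not part of the list. These RNAs are known mainly from neurons. All 19 are 94 bases or shorter and had an effective length of 0 in the gene tables, so a 0 there is no measure of their absence. The 4 Rpl13a members, studied elsewhere in oxidative and lipid stress, were at 0 in the gene tables, and of them Snord32a alone passed in the second table, with 6 and 5 estimated counts. Of 4 Gas5 members, Snord47 had 10.3 and 0 estimated counts and the others were at 0, although the host Gas5 stood at 44 TPM in replicate 1 and 30.4 TPM in replicate 2.

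Nearly all members lie inside another gene. A host on the same strand was annotated for 141 of 150 members, in 90 host genes, and 33 members lie in 24 ribosomal protein genes. Of the 141, 76 are intronic in every host transcript and 65 overlap an exon of at least 1 host transcript. At least 3 counts in both libraries of the second table were found for 8 of 9 members with no host, 39 of 76 intronic members and 9 of 65 exon-overlapping members. These shares are 88.9%, 51.3% and 13.8%, against 45.2% of all genes, so the intronic share lay near that of all genes. Among members of at least 126 bases alone, 5 of 6, 16 of 22 and 9 of 25 passed in the same order of places. Members of which every 31-base word occurs in another transcript passed in 7 of 73 cases and members sharing no word in 32 of 51. Whether reads of exon-overlapping members went to their hosts was not tested. Host TPM and the member's count in the second table went together weakly. Their rank correlation was 0.292 in replicate 1 and 0.199 in replicate 2 over the 141 members. Members of the same host are not independent, and 17 of them, all at 0, lie in Snhg14 alone.

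**Figure D4:**
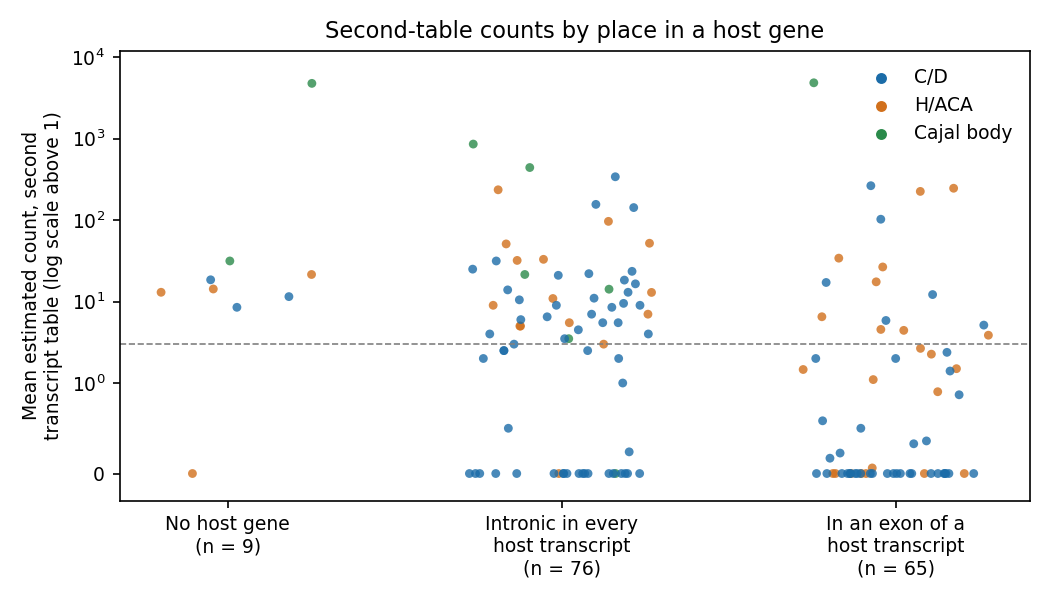
Mean estimated count over both libraries in the second transcript table (log scale above 1) for members with no host gene, intronic in every host transcript, or in an exon of a host transcript, coloured by class and spread sideways for legibility. The dashed line marks 3 counts, and most of the 65 exon-overlapping members lie under it.

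Several of the shorter detected members had higher counts in replicate 1 beyond the difference in depth. After normalization over 10088 genes with a mean count of at least 50, 4 of 11 members were more than 2-fold higher in replicate 1, where 0.674% of all genes were, and 0 were more than 2-fold lower, where 0.506% of all genes were. All 4 were under 50 counts in replicate 2 (Snord22 38.9, Snora73a 37.7, Snora73b 44.6 and Snord15b 27.8). They passed the filter only through replicate 1, where they were high, so their share is no measure free of the filter. The log2 ratio of replicate 1 over replicate 2 was 2.73 for Snord22, 2.63 for Snora73a, 2.41 for Snora73b and 1.96 for Snord15b. Snora73a and Snora73b are near copies (identity 96.6%), so these 2 of the 4 are not separate observations. It was 0.96 for Snord15a, 0.69 for Snord17, 0.66 for Scarna6, 0.34 for Snora74a, 0.30 for Scarna10, 0.16 for Scarna2 and -0.06 for Scarna13. The members' median was 0.69, beside a median of -0.0014 over all genes. All 5 members of at least 238 bases stayed under 2-fold, and the 4 past it are of 126 to 205 bases. Snord15a (148 bases) and Snora74a (196 bases) lie in the same range and stayed under 2-fold. All 4 past 2-fold share between 45.1% (Snora73b) and 100% (Snord22 and Snord15b) of their words with transcripts of other genes. Of members with every word shared, 2 of 3 were past 2-fold, and of members sharing no word, 0 of 4. Scarna10, sharing 85.8%, and Scarna13, sharing 14.3%, stayed under 2-fold. The parts of length and shared words were not tested.

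The hosts that could be measured had ratios between -0.22 and 0.42, while Snhg3, host of the Snora73 pair, was under the count filter. The ratio was 0.42 for Snhg1, host of Snord22, and -0.12 for Rps3, host of both Snord15 members. It was -0.22 for Snx5, 0.03 for Atg16l1 and 0.04 for Ncapd2. Of 21 other snoRNA and scaRNA genes, 8 were more than 2-fold higher in replicate 1 and 1 was lower, with a median of 0.78. Starting amount and effective length differed between the same libraries, with effective lengths of 29.3 bases in replicate 1 and 23.8 in replicate 2 for the Snora73 pair. Their part in the ratio was not tested, and starting amount and replicate cannot be told apart.

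**Figure D5:**
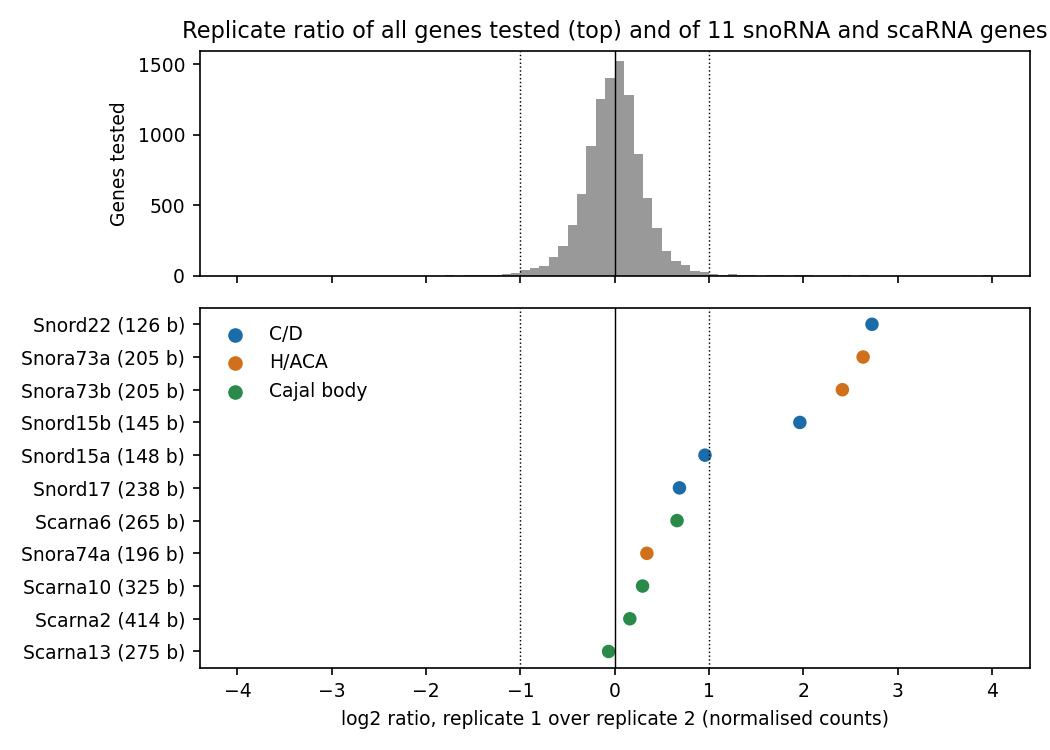
Log2 ratio of replicate 1 over replicate 2 in normalised counts, as a histogram of the 10088 genes tested (top, values beyond the axis counted in the end bars) and as 1 point for each of 11 members with its length in bases (bottom), coloured by class. Dotted lines mark 2-fold, and Snord22, Snora73a, Snora73b and Snord15b lie to the right of them.

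The messenger RNAs of the partner proteins were present in both libraries. Of the C/D proteins, Nop56 was the highest at 15.0 TPM in replicate 1 and 10.7 TPM in replicate 2, and Fbl, the methyltransferase fibrillarin, stood at 8.13 and 6.14 TPM. The list's median was 11.2 TPM in replicate 1 and 9.05 TPM in replicate 2. Of the H/ACA proteins, Nhp2 was the highest on average at 6.06 and 3.46 TPM, Gar1 stood at 3.06 and 3.77 TPM, and Nop10 was the lowest at 1.09 and 0.72 TPM, with list medians of 2.87 and 2.74 TPM. Dkc1, the pseudouridine synthase dyskerin, stood at 2.68 and 2.02 TPM. The 12 assembly and Cajal body proteins had medians of 1.57 and 1.26 TPM, with Smn1 the highest on average at 4.10 and 5.39 TPM, Pih1d1 at 4.29 and 2.45 TPM, and Coil, the Cajal body scaffold coilin, the lowest at 0.48 and 0.63 TPM. These are levels of nucleoplasmic RNA scaled by effective length and say nothing of protein.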

How the data were processed

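Each of the 2 libraries came with 3 tables, of which the gene table and the second transcript table (the one with estimated counts per transcript) were used, on mm10 with GENCODE M21, per the file headers. The expected counts of the gene tables are estimated read numbers deposited by the authors without normalization. The deposited TPM values divide counts by effective length and were brought to a common total by the authors. Estimated counts and TPM of the second table, also deposited, were summed per gene. Strandedness, the aligner and the quantifiers are not stated in the labels or file headers, so reads of genes that overlap on opposite strands cannot be told apart.

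The 26345 rows that name no mouse gene held 0.662% of counts in replicate 1 and 0.232% in replicate 2 and were left out of library sizes. A member was called detected at 3 or more counts in both libraries, also the floor for a count of 0. Reads carry no molecular identifiers, so floors cover counting error only. For the replicate ratio, expected counts were rounded, normalised with edgeR 4.0.16 (TMM, run in R 4.3.3), filtered at a mean count of 50 and given 0.5 before the log2 ratio. The step was tested on simulated data. Host genes, sequences and 31-base words came from GENCODE M21, to which all 55536 entries matched. Other steps used pandas 2.3.3, scipy 1.17.1 and biopython 1.88. With 1 group no test between groups was possible.

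The members and gene lists were chosen with earlier results of these data known. Members were named by a rule: the highest in TPM and in count of each class, the extremes of both ratios, all of at least 200 bases and the detected members of the processing and imprinted lists. Snora81, Snora23, Snora26, the members named for their second-table counts or host, and Fbl, Dkc1, Gar1 and Pih1d1 were chosen after their values were seen. Alternatives were DESeq2 1.42.0 size factors, other filters, pseudocounts and units, the second table and each library alone.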

Additional observations from a re-analysis of the deposited data

How the results depend on the processing

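No paired analysis was possible because the data form 1 group. Detection and class levels depended on the quantification and on length scaling. The second table raised the detected members to 56 of 150, with 29 C/D, 20 H/ACA and 7 Cajal body members, and moved the class medians to 0.43 for C/D and 1.86 for H/ACA members. It set C/D minus H/ACA at -1.42 and Cajal body minus H/ACA at 2.93, while the long Cajal body RNAs' share of counts was 88.6% in the gene table and 81.0% in the second, and the rank correlation of length with TPM was 0.57 in the gene table and 0.30 in the second. Using 1 library at a time gave 14 to 23 detected members and 6 to 14 H/ACA members, replicate 1 alone giving the higher counts. A pseudocount of 0.1 set both the C/D and the H/ACA median at -3.32 and Cajal body minus H/ACA at 7.92. Detected members alone had medians of 9.11 (Cajal body), 9.05 (C/D) and 7.52 (H/ACA), with differences from H/ACA of 1.59 for Cajal body and 1.53 for C/D members. Both the Cajal body median and its difference from H/ACA, 4.65 on the TPM scale, were 0.14 in CPM, 6.72 in TPM rescaled over nuclear protein-coding genes plus the members, 0 at 100 up to 150 bases and 0.78 in CPM per kilobase, the last chosen after seeing the data. Without a count filter 18 of 31 members were more than 2-fold higher in replicate 1, where 15.2% of 22020 genes were, and 3 were more than 2-fold lower, where 2396 genes were, with a median of 1.84 in place of 0.69. Between tables, CPM gave 0 members past 2-fold and a median of 0.27, and single libraries gave medians of 1.34 to 2.77, replicate 2 alone the lower. Protein-coding hosts alone held 92 members. The cause of these changes was not tested. DESeq2 size factors, 3 added to each count and a minimum of 10 counts changed no direction and no count by over 1.5 times. Depth limits members with few counts, and members under 126 bases had an effective length of 0 in the gene tables, where a 0 is no measure of absence.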

Other observations

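The entries of each pair that share a symbol overlap on the same strand. Of these pairs, the Snora43 entries differ in length and in the counts assigned to them. Entry 1, of 139 bases, had 4 counts in replicate 1 and 0 in replicate 2, and 24 and 19 estimated counts in the second table, while entry 2, of 127 bases, was at 0 throughout. The Snord80 entries, of 81 and 77 bases in Gas5, were at 0 in both tables of both libraries. The Snora16a entries, in Snhg12, reached at most 0.97 counts. Snord43, which the annotation types as a microRNA, lies with Snord83b in introns of Rpl3. Both were at 0 in the gene tables, and in the second table Snord43 had 28 and 19 estimated counts and Snord83b had 32 and 18.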
